A study of Mus musculus with 20 samples.

Results

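The genes named as stromal or contractile, 10 of the 24047 in the count table, were followed across gastric organoid lines from mice. They were Fstl1, Pdpn, Acta2, Tagln, Myl9, Sparc, Dcn, Lum, Thy1 and Pdgfra. Of these, Fstl1, Pdpn and Acta2 were chosen by their measured pattern over these lines, so their values are given as a description with no test. The other 7 were taken as known fibroblast or smooth muscle genes. All 10 had counts, and 8 passed the filter on low counts; Dcn and Lum did not. The libraries, 20 in number, came from 8 lines of BL/6 gastric organoids grown in conditioned medium. Among the p53 knockout (KO) lines, 650 carried an in vivo KO and 1270 an ex vivo KO, both non-dysplastic (2 libraries each), and 794 and 801 carried in vivo KOs and were dysplastic (3 libraries each). Among the wild-type (WT) lines, 300 and 1269 were non-dysplastic (2 libraries each) and 565 and 752 were dysplastic (3 libraries each). The series title also speaks of a knockdown and the growth protocol of mutant p53, but each library is labelled KO or WT. The labels name no Cre driver, allele or animal, and do not say whether a line is a clone. Values are given per line, as counts summed over its libraries.

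Gastric organoids are epithelial cultures, started from stomach glands and kept without the connective tissue that surrounds them in the animal. In the stomach wall, fibroblasts secrete collagens and small proteoglycans, while smooth muscle cells and myofibroblasts build contractile bundles from their own actin, myosin light chain and actin-binding proteins. Some of these genes are not limited to stroma: epithelial cells in culture or in tumours can also express podoplanin, smooth muscle actin or transgelin. In a bulk library, fewer cells of a type and less RNA per cell cannot be told apart.

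Line totals ran from 22217126 to 36880593 counts and library totals from 5669521 to 16323270. Values are CPM, counts scaled to the depth of the library or line, with TMM factors that adjust for differences in RNA composition. Trp53, the gene for p53, read 4.43 to 33.0 CPM in the 10 KO libraries and 98.6 to 164 CPM in the 10 WT libraries. The last-numbered library of lines 650, 794, 801, 300, 565 and 752 stood apart from the other libraries. In those 6 libraries the median log2(CPM + 1) of genes in the lowest quartile of length, minus that of genes in the highest quartile, was 0.019 to 0.65, against -0.69 to -0.25 in the other 14. The effect of leaving those libraries out is given for the 10 genes further on. Lines 650 and 300 had Ddx3y, a Y-linked gene, at 23.6 and 44.8 CPM and Xist below 1 CPM. The other 6 lines, all 4 dysplastic ones among them, had Xist from 317 to 668 CPM.

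RefSeq promoters on build GRCm38.p6, 300 bases each around the annotated start, were found for 6 of the 10. Shown here are the 2 matched contractile genes and the pair Fstl1 and Pdpn, whose line patterns resembled each other. Acta2, alpha smooth muscle actin, was read from chr19:34255324-34255623 on the minus strand and Myl9, the regulatory light chain of smooth muscle myosin, from chr2:156775214-156775513 on the plus strand. Fstl1 was read from chr16:37776805-37777104 on the plus strand and Pdpn from chr4:143299515-143299814 on the minus strand. The sequences run 5′ to 3′ along each gene's strand, and capitals mark a CArG box, the site bound by serum response factor, which controls many contractile genes.
Acta2: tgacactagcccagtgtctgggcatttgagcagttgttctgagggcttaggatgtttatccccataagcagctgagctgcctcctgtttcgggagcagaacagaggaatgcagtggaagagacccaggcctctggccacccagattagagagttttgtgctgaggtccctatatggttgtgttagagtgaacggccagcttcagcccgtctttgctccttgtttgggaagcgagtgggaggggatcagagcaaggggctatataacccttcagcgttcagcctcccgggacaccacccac
Myl9: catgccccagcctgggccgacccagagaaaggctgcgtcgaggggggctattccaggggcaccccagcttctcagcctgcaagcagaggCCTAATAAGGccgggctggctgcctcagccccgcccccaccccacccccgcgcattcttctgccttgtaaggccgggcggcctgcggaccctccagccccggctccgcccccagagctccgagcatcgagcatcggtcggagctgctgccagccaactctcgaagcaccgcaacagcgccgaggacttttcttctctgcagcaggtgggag
Fstl1: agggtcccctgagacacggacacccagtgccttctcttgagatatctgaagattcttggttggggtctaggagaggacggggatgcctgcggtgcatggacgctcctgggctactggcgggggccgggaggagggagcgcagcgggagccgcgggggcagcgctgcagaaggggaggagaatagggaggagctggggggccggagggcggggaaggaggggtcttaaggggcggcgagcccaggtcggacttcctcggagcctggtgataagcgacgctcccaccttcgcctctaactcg
Pdpn: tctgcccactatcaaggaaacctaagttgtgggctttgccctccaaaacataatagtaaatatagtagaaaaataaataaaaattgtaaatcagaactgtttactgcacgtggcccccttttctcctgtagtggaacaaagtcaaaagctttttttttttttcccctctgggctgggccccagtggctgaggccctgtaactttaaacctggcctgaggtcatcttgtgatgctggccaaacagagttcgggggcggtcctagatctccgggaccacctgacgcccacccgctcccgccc
Both strands were searched for the CArG box and the p53 half-site, each in its strict consensus form with no mismatch allowed, and for TATAAA and TGANTCA, the AP-1 site. The CArG box was found in Myl9, starting at position -161 from the annotated start, and in 1.63% of 32851 promoters of the same length. The p53 half-site, 10 bases that p53 binds in pairs, was found in Sparc, starting at position -219, and in 8.36% of promoters. No matched promoter held TATAAA or TGANTCA, which 13.6% and 7.81% of promoters held. No 2 of these matches overlapped. Tagln, Dcn, Lum and Thy1 were not in the table used. The Acta2 promoter is known to bind serum response factor through CArG elements that depart from the strict consensus, and such elements were neither searched for nor marked. These matches describe letters and are not evidence of binding.

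Fstl1 encodes a secreted follistatin-like glycoprotein made in quantity by mesenchymal cells. It read 19.7 CPM in dysplastic KO line 794, 14.9 CPM in dysplastic KO line 801, 4.86 CPM in KO line 650 and 0.58 CPM in the ex vivo KO line 1270. In the WT lines it read 1.01 CPM in 752, 0.38 CPM in 565, 0.24 CPM in 1269 and 0.095 CPM in 300. The 3 in vivo KO lines were thus the only lines above 1.01 CPM, and 1270 lay between WT lines 752 and 565. The libraries of 794 ran from 16.5 to 24.1 CPM and those of 801 from 12.5 to 24.0 CPM, so these 2 lines did not differ beyond their spread. Line 650, from 2.89 to 7.55 CPM, stood apart from both 801 above it and 752 below it. Below line 650 every adjacent pair of lines overlapped, and line 300 rested on 2 counts in all.

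Pdpn encodes podoplanin, a mucin-type membrane glycoprotein of fibroblasts, lymphatic vessels and some epithelia, which binds the platelet receptor encoded by Clec1b and the linker proteins ezrin and moesin. It read 14.7 CPM in line 794, 9.56 CPM in 801, 3.08 CPM in 650 and 2.46 CPM in 1270. The WT lines read 2.44 CPM in 565, 2.14 CPM in 752, 1.19 CPM in 1269 and 0.81 CPM in 300. The order resembled that of Fstl1, with 794 and 801 on top and 300 at the bottom, but the range was narrower. The libraries of 794 (9.10 to 26.9 CPM) and 801 (7.52 to 14.2 CPM) overlapped each other and no library of another line. The 4 lines in the middle, 650, 1270, 565 and 752, overlapped one another as neighbours. Pdpn was the 1 gene of the 10 with every KO line above every WT line, which held for 0.920% of tested genes in that direction. The margin between 1270 and 565 was 2.46 against 2.44 CPM, and without the last-numbered libraries KO line 650 lay below WT line 565, as given below. Because Pdpn was picked for its line pattern, nothing is read from its place in that count.

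The ratio of Pdpn to Fstl1 counts ordered the lines in another way. It was 0.634 in 650, 0.745 in 794 and 0.640 in 801, and 4.22 in the ex vivo KO line 1270. In WT lines it was 8.50 in 300, 5 in 1269, 6.46 in 565 and 2.11 in 752. By line sums the 3 in vivo KO lines were therefore close to each other and below the other 5. The ratio in 300 rests on 17 and 2 counts and that in 1269 on 30 and 6. Single libraries of 794 and 752 overlapped. The last library of 794 had 234 counts of Pdpn and 153 of Fstl1. That ratio was above those of the first library of 752, on 25 and 20 counts, and its second, on 18 and 12. Both genes were picked for their line pattern, so the ratio is a description.

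**Figure D1:**
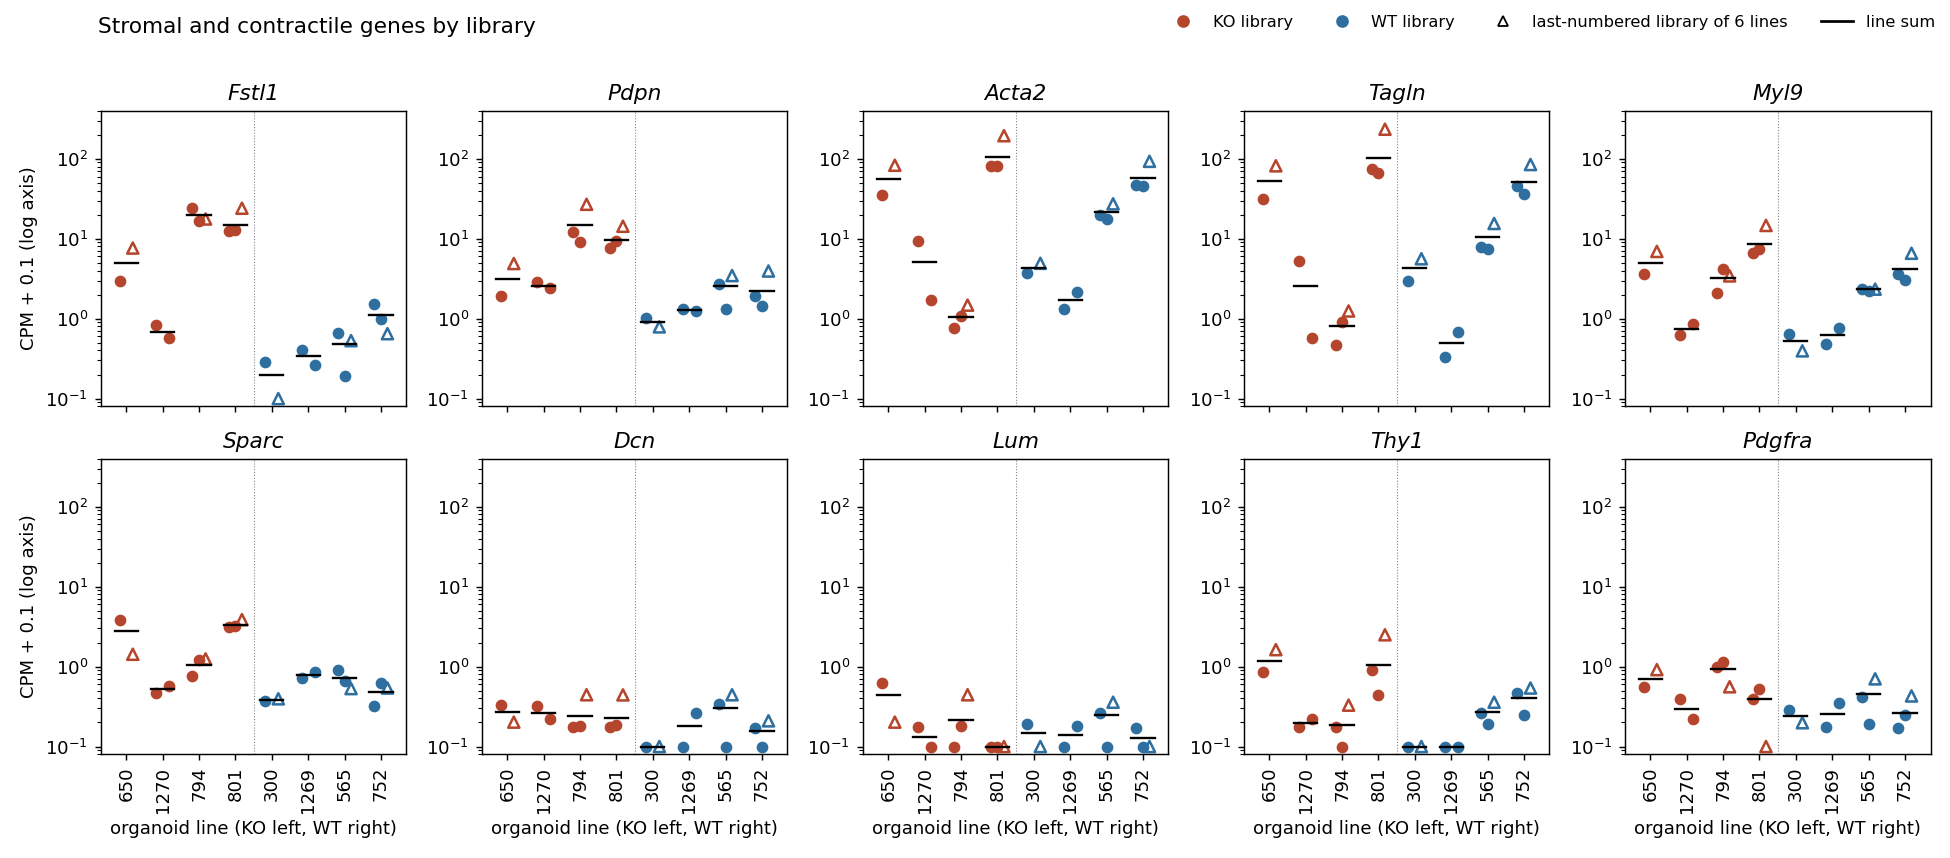
CPM + 0.1 on a log axis for each of the 10 genes in the 20 libraries, with KO lines on the left and WT lines on the right of each panel. Points are libraries, open triangles the last-numbered libraries of 6 lines, and bars the line sums. Fstl1 and Pdpn were highest in lines 794 and 801, whereas Acta2 and Tagln were highest in 801, 650 and 752 and near their lowest in 794.

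Acta2 encodes the actin isoform of smooth muscle and myofibroblasts. It read 104 CPM in KO line 801, 55.4 CPM in KO line 650, 4.95 CPM in KO line 1270 and 0.95 CPM in KO line 794. In WT lines it read 58.2 CPM in 752, 21.6 CPM in 565, 4.20 CPM in 300 and 1.63 CPM in 1269. The KO and WT lines overlapped widely, and the 2 dysplastic KO lines held the highest and the lowest values of all 8. Line 801 had 3197 counts of Acta2 and line 794 had 33. The libraries of 801 (80.7 to 195 CPM), 752 (45.6 to 92.9 CPM) and 650 (35.3 to 83.0 CPM) overlapped as neighbours and lay above those of every other line. Line 565 stood apart from its neighbours on both sides, and 1269 and 794 overlapped at the bottom.

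Within line 1270 the 2 libraries disagreed: Acta2 read 9.34 CPM in the first and 1.60 CPM in the second, on 126 and 27 counts. Tagln did the same, at 5.12 and 0.47 CPM. Cnn1, the calponin of smooth muscle, had 13 and 1 counts in these libraries, and Mcam, a surface adhesion molecule of pericytes and smooth muscle, read 7.86 and 0.53 CPM. Fstl1 and Pdpn differed less, at 0.74 and 0.47 CPM and at 2.74 and 2.31 CPM. Line 1270 is not among the 6 lines whose last library stood apart, and the difference between its short and long genes was -0.56 and -0.38, within the range of the 14 libraries.

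Tagln encodes transgelin, an actin-binding protein of smooth muscle. It read 103 CPM in line 801, 52.7 CPM in 650, 2.49 CPM in 1270 and 0.72 CPM in 794. The WT lines read 51.7 CPM in 752, 10.3 CPM in 565, 4.15 CPM in 300 and 0.40 CPM in 1269. The order was close to that of Acta2, and the genotypes overlapped in the same way. Counts of Tagln per count of Acta2 were 0.951 in 650, 0.985 in 801, 0.758 in 794 and 0.503 in 1270, against 0.989 in 300, 0.888 in 752, 0.477 in 565 and 0.244 in 1269. The ratio in 794 rests on 25 and 33 counts and that in 1269 on 10 and 41. Line 565 therefore carried about as many Acta2 counts for each Tagln count as 1270, while 300, with low levels of both, had a ratio like that of 801.

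Myl9 read 8.51 CPM in line 801, 4.90 CPM in 650, 3.09 CPM in 794 and 0.65 CPM in 1270. In WT lines it read 4.06 CPM in 752, 2.24 CPM in 565, 0.52 CPM in 1269 and 0.43 CPM in 300. It followed Acta2 in most lines, and line 794 was the exception. There Myl9 had 107 counts, and the ratio of Myl9 to Acta2 counts was 3.24, against 0.0697 to 0.317 in the other 7 lines. The 5 lines from 801 down to 565 overlapped as neighbours, and 565 stood clear of 1270, 1269 and 300.

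**Figure D2:**
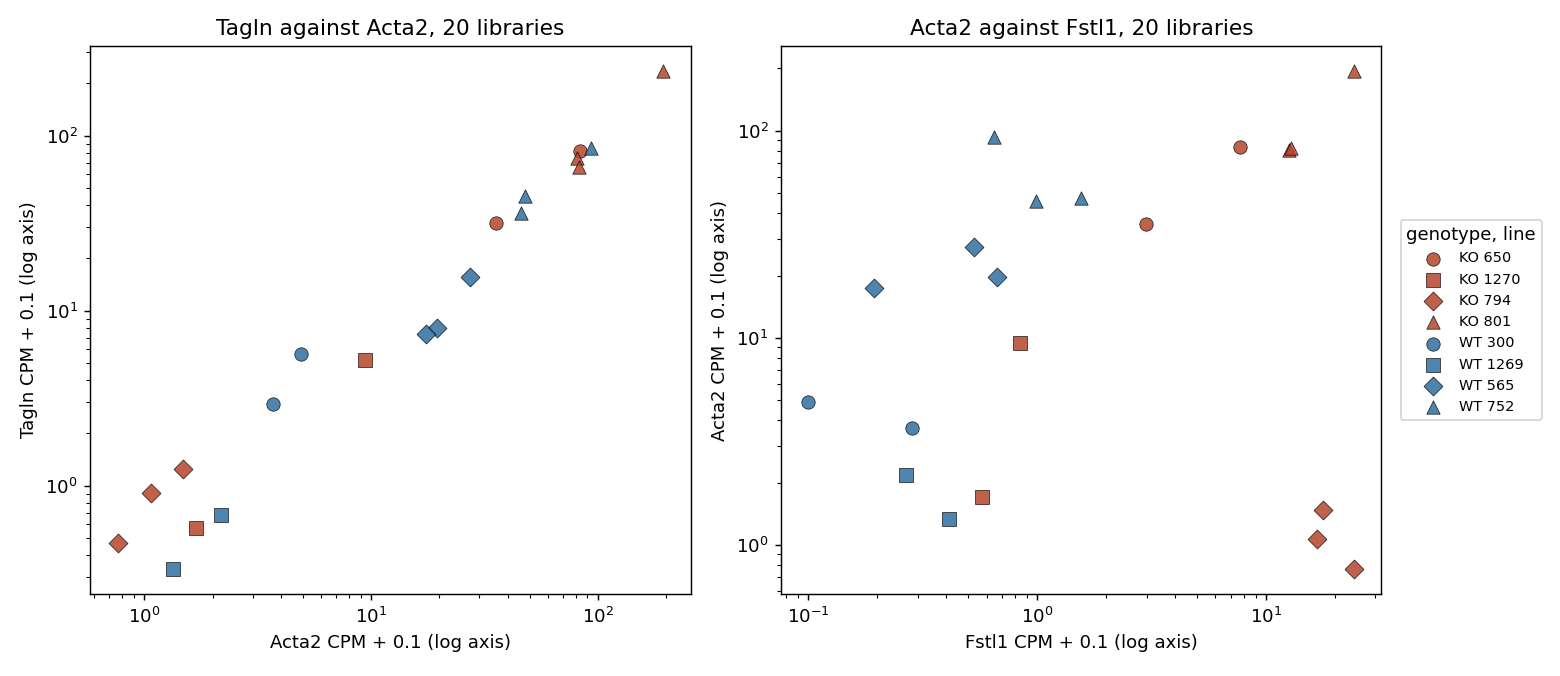
Tagln against Acta2 (left) and Acta2 against Fstl1 (right) in the 20 libraries, as CPM + 0.1 on log axes, with KO libraries in red, WT libraries in blue and a shape for each line. Tagln and Acta2 lay along 1 diagonal, while the 3 libraries of KO line 794 combined low Acta2, at 0.66 to 1.38 CPM, with 16.5 to 24.1 CPM of Fstl1.

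Sparc encodes a secreted collagen-binding matrix protein. It read 3.26 CPM in line 801, 2.69 CPM in 650, 0.95 CPM in 794 and 0.42 CPM in 1270. The WT lines read 0.68 CPM in 1269, 0.61 CPM in 565, 0.38 CPM in 752 and 0.29 CPM in 300. Lines 801 and 650 were above every WT line. Line 794 was above the WT lines by less, with libraries overlapping those of 1269 and 565, and 1270 lay among the WT lines. The library with the most Sparc in line 650 was the first, with 49 counts against 13 in the second. That same library had 366 counts of Col1a1, a chain of type I collagen, against 53, and 7 of the 8 Lum counts of the line. Acta2, Tagln, Fstl1, Pdpn and Myl9 were higher in the second library of 650, so Sparc went the other way within this line. The second library is the last-numbered library of 650, which stood apart in gene length.

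The 2 surface markers used to sort fibroblasts were scarce. Thy1, a glycosyl-phosphatidylinositol anchored glycoprotein, read 1.08 CPM in 650 and 0.95 CPM in 801 on 25 and 29 counts, and 0.097 and 0.086 CPM in 1270 and 794 on 3 counts each. In WT lines it read 0.30 CPM in 752 and 0.17 CPM in 565, on 11 and 6 counts, and had 0 counts in 300 and 1269. A count of 0 allows up to 0.143 CPM in 300 and 0.119 CPM in 1269, taking 3 counts per line as the limit, so 1270 and 794 were not distinguishable from those lines at this depth. No fold change is given for Thy1 because of these zeros.

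Pdgfra, the receptor for platelet-derived growth factor A that marks fibroblasts of the gut wall, read 0.84 CPM in 794, 0.61 CPM in 650, 0.29 CPM in 801 and 0.19 CPM in 1270. In WT lines it read 0.35 CPM in 565, 0.16 CPM in 752, 0.16 CPM in 1269 and 0.14 CPM in 300. Its 83 counts over all libraries leave wide counting intervals, from 0.56 to 1.2 CPM in 794 and from 0.060 to 0.36 CPM in 752 (exact Poisson, 95%, counting error only). Every adjacent pair of lines overlapped. The line highest in Pdgfra, 794, was low in Thy1 and in Acta2.

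Dcn and Lum encode decorin and lumican, small leucine-rich proteoglycans that fibroblasts secrete abundantly. Dcn had 29 counts in all 20 libraries together, with at most 4 in a library, and Lum had 21 with at most 7. Dcn read 0.17, 0.16, 0.14 and 0.13 CPM in KO lines 650, 1270, 794 and 801, and 0, 0.079, 0.20 and 0.055 CPM in WT lines 300, 1269, 565 and 752. Lum was highest in KO line 650 at 0.35 CPM, read 0.032, 0.12 and 0 CPM in KO lines 1270, 794 and 801, and ran from 0.027 to 0.15 CPM in WT lines. All adjacent lines overlapped for both genes. Neither gene separated genotype or dysplasia at this depth.

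Levels were compared between genes per kilobase of merged exons, from the GENCODE annotation of mouse build GRCm38. The mean over lines was 17.6 CPM per kb for Tagln, 15.4 for Acta2, 2.70 for Myl9, 2.5 for Pdpn, 1.38 for Fstl1 and 0.43 for Sparc. It was 0.18 CPM per kb for Thy1, 0.061 for Dcn, 0.039 for Pdgfra and 0.039 for Lum. The same scale gave 1643 CPM per kb for Actb, the cytoplasmic beta actin, 1704 for Krt8, a keratin of simple epithelia, and 380 for Epcam, an epithelial adhesion molecule. Even in line 801 Acta2 reached 51.2 CPM per kb, against 1807 for Actb. The highest line value of any of the 10 genes was 64.4 CPM per kb, for Tagln in line 801.

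The comparison of KO with WT lines asked how loss of p53 goes with expression. Over all 13476 tested genes edgeR's quasi-likelihood test called 0 genes at an adjusted p under 0.05, or 0% of them, while 543 passed 0.05 unadjusted. DESeq2 called 74 and limma-voom 63. Dcn and Lum were not tested. Thy1 was tested and not called, but its fold change is not given because of its zeros. This leaves 4 of the 7 genes not picked for their pattern. These 4 all had higher means in KO lines, none past the threshold. Myl9 averaged 4.29 ± 3.31 CPM in KO lines and 1.81 ± 1.71 CPM in WT lines (SD over 4 lines in each group), and its log2 fold change was 1.70 ± 0.69 (SE). Sparc averaged 1.83 ± 1.36 CPM in KO lines and 0.49 ± 0.18 CPM in WT lines, a log2 fold change of 1.87 ± 0.73. Without line 650 the log2 fold change was 0.66 for Myl9 and 0.94 for Sparc.

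Tagln averaged 39.6 ± 48.5 CPM in KO lines and 16.6 ± 23.7 CPM in WT lines, a log2 fold change of 2.18 ± 1.51, which turned to -0.91 without line 801 and was 0.45 without line 650. Limma-voom, fitted to the libraries rather than the line sums, gave 0.48 for Tagln, and 0.46 with the library number as a replicate block. Pdgfra averaged 0.48 ± 0.29 CPM in KO lines and 0.20 ± 0.097 CPM in WT lines, a log2 fold change of 1.25 ± 0.63, which was 0.74 without line 650 and 0.77 without line 794. The edgeR adjusted p over all tested genes was 1 for each of the 4, and the unadjusted p was 0.0433 for Myl9, 0.0393 for Sparc, 0.195 for Tagln and 0.0881 for Pdgfra. DESeq2 called none of them, and limma-voom none of the 3 it tested, Pdgfra being removed by its filter. In all 4 the in vivo line 650 was above the ex vivo line 1270, and both are non-dysplastic. There is 1 such line for each way of making the KO, and 650 had Ddx3y whereas 1270 had Xist. The mode of KO, sex and the line thus cannot be told apart. Acta2 averaged 41.4 ± 48.7 CPM in KO lines and 21.4 ± 26.1 CPM in WT lines and was not tested.

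Within the dysplastic lines, Fstl1, Pdpn and Sparc had both KO lines above both WT lines, which held for 19.0% of tested genes in that direction. Nothing is read from the place of Fstl1 and Pdpn in that count, since both were picked for their line pattern. Fstl1 averaged 17.3 ± 3.40 CPM in dysplastic KO lines and 0.70 ± 0.45 CPM in dysplastic WT lines (SD, n = 2 lines each), and Pdpn 12.1 ± 3.64 and 2.29 ± 0.21 CPM. Sparc averaged 2.11 ± 1.63 CPM in dysplastic KO lines and 0.50 ± 0.16 CPM in dysplastic WT lines. Its libraries in KO line 794, at 0.66 to 1.15 CPM, overlapped those in WT line 565, at 0.43 to 0.81 CPM. For Acta2, Tagln, Myl9 and Thy1 the dysplastic WT line 752 lay between KO lines 801 and 794. EdgeR's adjusted test found 0 genes here (588 unadjusted), DESeq2 69 and limma-voom 101, and the edgeR adjusted p was 1 for Tagln, Myl9, Sparc and Pdgfra. The log2 fold change of Tagln was 0.74 ± 2.01 in edgeR and -1.61 ± 1.44 in limma-voom (SE), and -5.43 in edgeR without line 801. Among non-dysplastic lines edgeR found 0 genes (257 unadjusted), DESeq2 6 and limma-voom 5. There Fstl1 averaged 2.72 ± 3.02 CPM in KO lines and 0.17 ± 0.10 CPM in WT lines, and Pdpn 2.77 ± 0.44 and 1.00 ± 0.27 CPM.

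The comparison of dysplastic with non-dysplastic lines, as the mean over both genotypes, gave 0 calls in edgeR's test (797 unadjusted), 153 in DESeq2 and 138 in limma-voom. None of the 10 genes had every dysplastic line above every non-dysplastic line, which held for 1.74% of tested genes. Myl9 averaged 4.47 ± 2.79 CPM in dysplastic lines and 1.62 ± 2.19 CPM in non-dysplastic lines (SD, n = 4 lines each), with a log2 fold change of 1.90 ± 0.69 and an edgeR adjusted p of 0.783. That fold change ran from 1.44 to 2.94 when each line was left out in turn, highest without line 650. Its lowest adjusted p in the fits tried was 0.0712, from limma-voom. The log2 fold change was 2.35 ± 1.52 for Tagln, 0.24 ± 0.72 for Sparc and 0.63 ± 0.62 for Pdgfra, with edgeR adjusted p of 0.986, 0.998 and 0.998. That of Tagln became -0.73 without line 801, and that of Sparc became -0.33 without 801 and -0.16 without 1270. That of Pdgfra lay between 0.16 without 794 and 1.13 without 650, with 0.31 without 565 and 0.32 without 1270. Among WT lines 7 of the 8 genes that passed the filter, all but Sparc, were higher in both dysplastic lines, 565 and 752, than in both non-dysplastic lines, 300 and 1269. This held for 13.7% of tested genes in that direction, and for Pdgfra by a margin smaller than the rounding used here. Without the last-numbered libraries Pdgfra read 0.11 CPM in 752, below 0.16 CPM in 1269 and 0.18 CPM in 300, so that it left this count. Because Fstl1, Pdpn and Acta2 were picked for their line pattern, nothing is read from that count. Among KO lines Acta2 and Tagln did not follow dysplasia, since 794 was below 650. A test of the difference between KO effects in the 2 classes called 0 genes by edgeR (241 unadjusted). All dysplastic lines had Xist, and 300 and 650 were non-dysplastic, so dysplasia and sex cannot be fully told apart here.

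**Figure D3:**
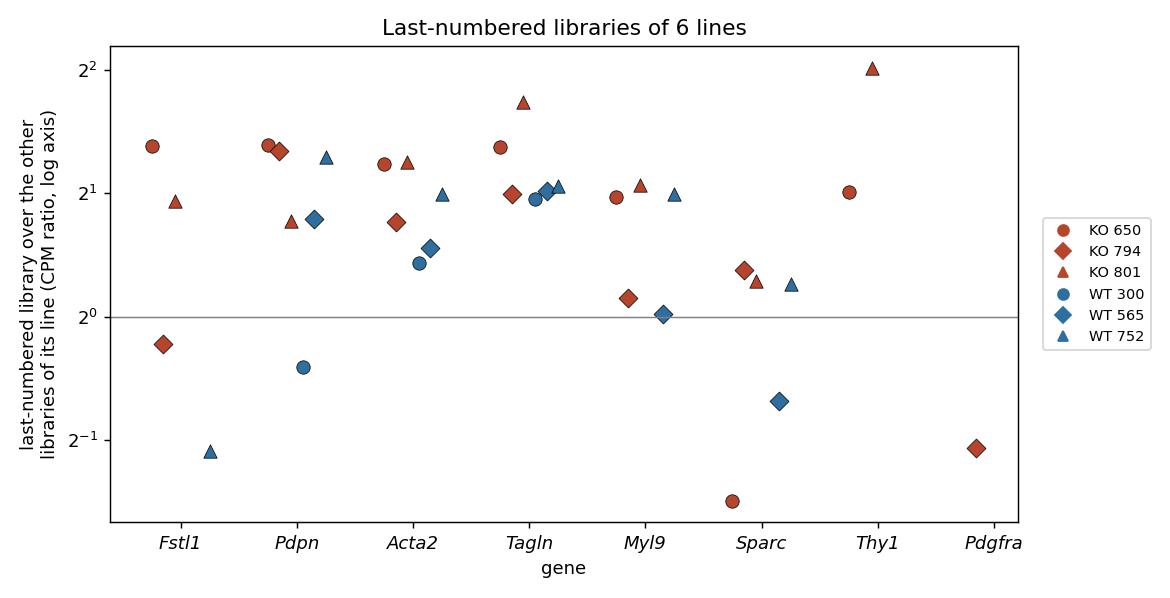
CPM in the last-numbered library of 6 lines divided by CPM in the other libraries of the same line, on a log2 axis, where the other libraries of the line had at least 10 counts. Red points are KO lines, blue points WT lines, and the horizontal line marks a ratio of 1. Acta2 and Tagln were above 1 in all 6 lines, and Sparc was at 0.36 in line 650.

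The libraries that stood apart in gene length also carried relatively more counts of Acta2 and Tagln. Acta2 was 1.35 to 2.39 times and Tagln 1.94 to 3.33 times as high in the last-numbered library as in the others of its line, in all 6 lines. Pdpn was at 1.72 to 2.63 times in 650, 794, 801, 565 and 752, and at 0.75 times in 300. Myl9, the shortest of the 10 at 1128 bases of merged exons, was at 1.95 times in 650, 1.11 in 794, 2.10 in 801, 1.017 in 565 and 2.00 in 752, and at 0.30 against 0.55 CPM in 300 on 3 and 6 counts. Fstl1 did not share a direction, with 2.61 in 650, 1.91 in 801, 0.86 in 794 and 0.47 in 752. Without these libraries the line order of Fstl1 and of Acta2 was the same over all 8 lines. Lines 650 and 752 changed places for Tagln, at 31.7 CPM in 650 and 41.2 CPM in 752, and 801 and 650 for Sparc, at 3.16 and 3.75 CPM. Pdpn then read 1.84 CPM in KO line 650, against 1.96 CPM in WT line 565, so that KO and WT lines overlapped. In line 650 Fstl1 then read 2.91 CPM and Acta2 35.5 CPM. Thy1 read 0.77 CPM in 650 and 0.61 CPM in 801, against at most 0.26 CPM in WT lines. The order of Myl9 was the same but for lines 300 and 1269, the 2 lowest, and Dcn and Lum stayed at or below 0.23 and 0.54 CPM in every line. The part of gene length in these ratios was not tested.

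Markers of the cell types that could carry these genes were read in the same lines. Of 20 further fibroblast genes, 11 passed the filter, and their summed level over all 20 was 73.5 to 90.5 CPM in KO lines and 48.3 to 74.7 CPM in WT lines. The 3 highest were Fbln1, the matrix protein fibulin 1, at 25.4 to 58.4 CPM in KO lines and 31.7 to 55.4 CPM in WT lines, then Col14a1 and Col1a1. Col1a1 read 18.2 CPM in 650, 7.76 in 801, 5.94 in 794 and 2.66 in 1270, against 2.14 to 3.25 CPM in WT lines. Most of the excess in 650 and 794 came from 1 library each, with 27.8 CPM in the first and 5.41 CPM in the second library of 650, and 12.3 CPM in the second library of 794 against 2.28 and 2.53 CPM in its others. Col1a2 and Col3a1, further fibrillar collagen chains, were highest in 650 at 8.59 and 6.64 CPM. The first library of 650 carried these line values too, with 13.8 against 1.74 CPM of Col1a2 and 10.7 against 1.22 CPM of Col3a1. The second lay within the WT libraries for both, but it is the library of 650 that stood apart in gene length. The part of gene length in this was not tested. Vim, which encodes the intermediate filament vimentin, read 7.54 CPM in 801 and 6.90 CPM in 650, against 2.00 to 2.31 CPM in WT lines, with 9.81 CPM in the first and 3.06 CPM in the second library of 650. Loxl1, a lysyl oxidase-like enzyme, read 8.42 CPM in 801, 4.09 in 794, 2.86 in 650 and 0.16 in 1270, against 0.19 to 1.76 CPM in WT lines. Col6a3, a chain of type VI collagen, was highest in WT line 1269 at 4.65 CPM. It read 0.13 to 0.78 CPM in KO lines and 0.11 to 0.29 CPM in the other WT lines. The second library of 1269 read 8.36 CPM of it and the first 1.24 CPM. Between KO and WT lines 10 of the 11 had a positive log2 fold change and 1 a negative one, and none was called. Their median was 1.19, against 48.5% positive and a median of -0.01 over all tested genes. A gene can pass the filter through the lines where it is high. Col5a1 read 1.61 CPM in 794 and 1.13 CPM in 650, against 0.17 to 0.29 CPM in every other line. The first library of 650 also raised several of the 11. Nothing is therefore read from this tally, or from those of the lists below. Some other fibroblast genes were near 0: Pdgfrb had 27 counts in all libraries, Postn 21, Dpt 12, Fap 11, Pi16 2 and Twist2 1. Col1a2, Col3a1, Col5a1, Col6a3, Vim, Loxl1 and these 6 were named after their values were seen. Their part in the values of the 10 genes was not tested.

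Of 12 smooth muscle genes, 6 passed the filter, and the summed level of the 12 was 25.9 to 135 CPM in KO lines and 33.4 to 72.1 CPM in WT lines. The 3 highest were Tpm2, a tropomyosin, Smtn, which encodes smoothelin, and Cnn1. Cnn1 read 8.81 CPM in 801, 7.33 in 650, 0.45 in 1270 and 0.40 in 794, against 4.55 in 752, 1.86 in 565, 0.95 in 300 and 0.040 CPM in 1269, so its high and low lines were those of Acta2. Tpm2 was high in 794 at 49.8 CPM and lowest in 1270 at 4.21 CPM. All 6 tested genes had a positive log2 fold change in KO lines, with a median of 0.72, and none was called. Myh11, the smooth muscle myosin heavy chain, had 248 counts and read 3.17 CPM in 650, 1.47 in 801, 0.39 in 1270 and 0.29 in 794, against 1.76 in 752, 0.64 in 565, 0.64 in 1269 and 0.29 CPM in 300. Several other defining genes were near 0: Myocd, the transcriptional coactivator of smooth muscle identity, had 2 counts in all libraries, Hhip 1, Lmod1 37 and Actg2 41. Des, which encodes desmin, had 65 counts and reached 1.55 CPM in WT line 1269, where Acta2 read 1.63 CPM. The second library of 1269 held 35 of these counts, at 2.90 CPM, and the first held 4, at 0.31 CPM. Tpm2 was also higher in the second library, at 45.5 against 9.22 CPM, whereas Col14a1 was lower there, at 2.15 against 3.80 CPM. Myh11, Des and the near-zero genes were chosen after their values were seen.

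Of 7 pericyte genes, 3 passed the filter, with a sum of 13.0 to 61.1 CPM in KO lines and 28.5 to 76.2 CPM in WT lines, and Higd1b had no count. The 3 were Notch3, Mcam and Rgs5, all lower on average in KO than in WT lines, and none was called. Mcam followed the lines of Acta2 in part, at 37.9 CPM in 650, 36.5 in 801, 3.72 in 1270 and 1.70 in 794, against 44.6 in 752, 28.1 in 565, 16.5 in 1269 and 10.02 CPM in 300. The libraries of 1269 disagreed for it, at 7.75 CPM in the first and 26.2 CPM in the second. Immune genes summed to 9.55 to 33.1 CPM in KO lines and 19.5 to 52.7 CPM in WT lines, mostly Cd68, and neural genes to at most 1.39 CPM in KO lines and 1.76 CPM in WT lines. In the mesothelial and lymphatic list Msln made up most of the sum, at 845 to 1819 CPM in KO lines and 1447 to 1872 CPM in WT lines, while Wt1 had 10 counts in all. The 12 epithelial genes summed to 13445 to 18477 CPM in KO lines and 14909 to 17736 CPM in WT lines. Epcam read 1005 CPM in 801, 930 in 794, 858 in 650 and 557 in 1270, against 849 in 752, 776 in 565, 715 in 300 and 581 CPM in 1269. Whether the lines differed in their mix of cell types was not tested.

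**Figure D4:**
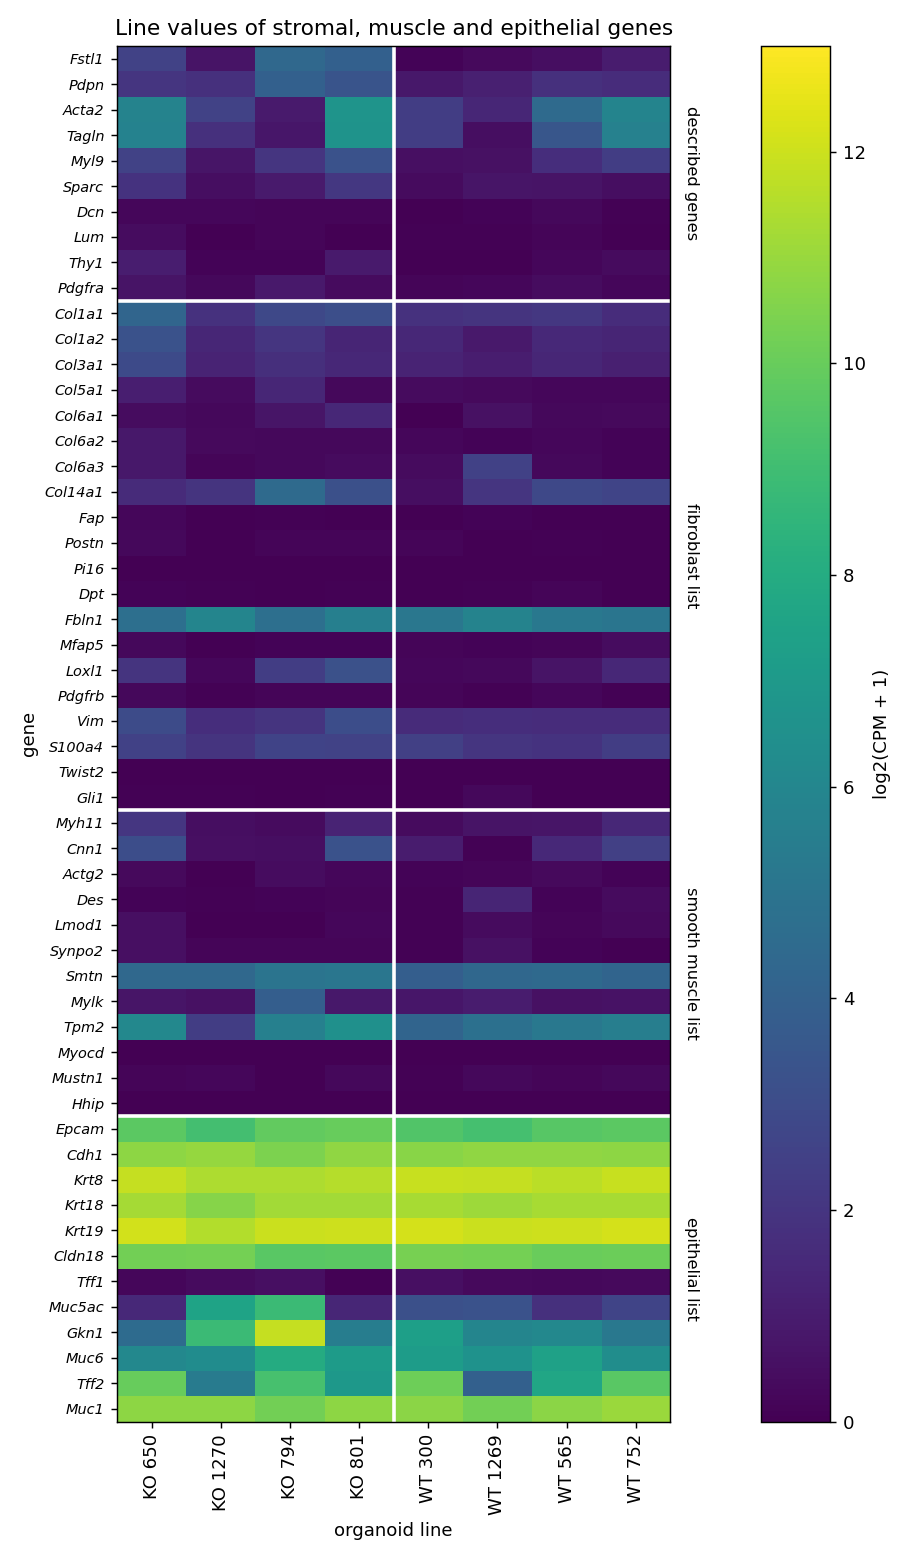
Line values as log2(CPM + 1) for the 10 genes and for the fibroblast, smooth muscle and epithelial lists, with 4 KO lines left and 4 WT lines right of the white line. Most fibroblast and smooth muscle genes were dark in every line, and Krt8, Krt18 and Krt19 were bright in every line.

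The partners of the 10 genes were read from 4 further lists. Of 23 actin and contractile genes of general use, 10 lay above and 13 below a log2 fold change of 0 between KO and WT lines, and the median was -0.03. Cald1, which encodes the actin-binding protein caldesmon, had the line pattern of Acta2: it read 221 CPM in 801, 180 in 650, 22.1 in 1270 and 20.8 in 794, against 138 in 752, 123 in 565, 44.5 in 300 and 28.9 CPM in 1269. Actb stayed between 2714 and 3470 CPM in KO lines and 3045 and 3333 CPM in WT lines, so cytoplasmic actin did not share the range of Acta2. Srf, which encodes serum response factor, was at 45.6 to 71.7 CPM in KO lines and 54.0 to 73.5 CPM in WT lines. Of 15 tested genes of TGF-beta signalling and response, 12 had a positive and 3 a negative fold change, and the median was 0.20.

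Of 16 tested secreted matrix partners, 12 were positive and 4 negative, with a median of 0.56. Fn1, which encodes fibronectin, read 1534 CPM in 801, 1345 in 650, 759 in 794 and 245 in 1270, against 922 in 565, 859 in 752, 429 in 300 and 401 CPM in 1269. Of 12 tested surface and receptor partners, 10 were positive and 2 negative, with a median of 0.32. Clec1b, the podoplanin receptor, had no count in any library. Msn, which encodes moesin, read 334 CPM in 801, 251 in 794, 225 in 650 and 68.2 in 1270, against 116 to 209 CPM in WT lines. None of the genes in these 4 lists was called in any of the 4 comparisons, in which edgeR called no gene at all. Cald1, Fn1 and Msn were named after their values were seen.

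The genes whose pattern over the 8 lines was most like those of Fstl1, Pdpn and Acta2 were sought by Pearson's r of log2(CPM + 1) among tested genes with a mean of at least 5 CPM. All genes were read in the same libraries and share their depth, so r is given as a description. For Fstl1 these were Nes, which encodes the intermediate filament nestin (r = 0.978), and Htra1, a secreted serine protease (r = 0.971), then Sema3e, Ahdc1 and Parp14. Nes read 43.0 CPM in 794, 22.5 in 801, 14.3 in 650 and 3.14 in 1270, against 2.86 to 6.42 CPM in WT lines. For Pdpn they were Enpp2, the secreted enzyme autotaxin (r = 0.970), Ahdc1, Htra1, Parp14 and Elk1, so Ahdc1, Htra1 and Parp14 were on both lists. Enpp2 read 73.3 CPM in 794 and 26.8 in 801, and 0.24 to 3.69 CPM in the other 6 lines.

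For Acta2 the list held Rnf122, a ring finger protein (r = 0.996), Tnc, which encodes the matrix protein tenascin C (r = 0.995), Tagln (r = 0.986), Sox4, a transcription factor (r = 0.982), and Paip1 (r = 0.963). Tnc read 33.0 CPM in 801, 25.4 in 650, 3.82 in 1270 and 1.18 in 794, against 30.7 in 752, 10.3 in 565, 3.67 in 300 and 1.47 CPM in 1269. No gene was on the list of both Acta2 and either of the other genes. Between Fstl1 and Pdpn r was 0.949 over the 8 lines, between Fstl1 and Acta2 0.20, and between Pdpn and Acta2 0.098. Acta2 and Tagln ranked 794 among the lowest lines, Fstl1, Pdpn and Pdgfra ranked it first, and Myl9 and Sparc ranked it in between. Thy1, on 77 counts in all against 83 for Pdgfra, had 794 at rank 6, at 0.086 CPM on 3 counts. Dcn and Lum, on fewer counts, are left out here. For Pdgfra and Thy1 every adjacent pair of lines overlapped. Since Fstl1, Pdpn and Acta2 were picked for their line pattern, no result is read from the contrast between them.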

How the data were processed

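The 20 libraries were made from mRNA of mouse gastric organoids, with a column kit for RNA and an mRNA library kit, per the labels' protocols. By the submitters' processing notes, the tools were bcl2fastq and STAR 2.5 with build mm9. The annotation, the counting tool and the strand setting were not given in the sources used here. Reads of overlapping genes can therefore not be assigned with certainty. The authors deposited raw read counts for each gene, as whole numbers without normalization. Every table column was mapped to a library by its title.

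The 10 genes, the marker lists, the named-gene rule and the alternatives were chosen with earlier results of these data known. The rule named all 10 genes, the 5 genes most like Fstl1, Pdpn and Acta2, and the 3 highest members of each cell type list. Libraries that share a title number were summed per line. Nothing in the labels ties lines to separate animals, so p-values from line sums reflect the line-to-line spread here, possibly technical. Those of limma-voom also draw on the spread between libraries of a line. It was fitted to the 20 libraries, with 1 correlation of 0.219 for all genes. Libraries of 1 line differed by more than sampling noise (chi-square of 6.11 or more per degree of freedom). After filterByExpr 13476 of 18180 genes with a count remained. CPM values use TMM-scaled totals. In R 4.3.3, edgeR 4.0.16 fitted 1 mean per combination of genotype and dysplasia, with 4 residual degrees of freedom, and tested 4 contrasts by its robust quasi-likelihood F test with Benjamini-Hochberg adjustment over all tested genes at 0.05. The SE is the log2 fold change divided by the square root of F. DESeq2 1.42.0 on line sums and limma 3.58.1 (voom, lines as correlated blocks, correlation 0.219) were alternatives, as were other scaling, no filter, leaving out each line and leaving out the last-numbered libraries of 6 lines. Promoters came from RefSeq on GRCm38.p6 and exon lengths from GENCODE on GRCm38, which differ from the build of the counts; lengths were found for 95.5% of tested genes. Of the procedures, the edgeR fit of KO against WT was tested on simulated data, and the others were not. The simulation took its spread from the trend over genes, so genes with a wider spread between lines were not covered. Depth sets the precision: 3 counts correspond to 0.0823 to 0.143 CPM in a line, and intervals and limits cover counting error only.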

Additional observations from a re-analysis of the deposited data

Results flagged for a closer look

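Pdgfra in WT lines was singled out because 1 line lay far from the other 3. Line 565 read 0.3486 CPM, on 12 counts, while lines 752, 1269 and 300 read 0.16, 0.16 and 0.14 CPM. The gap from 565 to the nearest line was 0.896 of the whole range over the 4 WT lines. Among the 20 groups of 4 lines examined this was the 1 that met the criterion, and chance alone marks about 1 group in 20. In the last-numbered library of line 565 Pdgfra had 7 of the 12 counts, and without that library the line read 0.22 CPM. Its counting interval, 0.18 to 0.61 CPM (exact Poisson, 95%), overlaps those of the other 3 lines.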

How the results depend on the processing

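EdgeR on line sums called 0 genes in all 4 comparisons, and also with DESeq2 size factors, with no filter on low counts and without the last-numbered libraries of 6 lines. DESeq2 on line sums called 74 genes for KO against WT, 69 in dysplastic lines, 6 in non-dysplastic lines and 153 for dysplastic against non-dysplastic. Limma-voom on libraries called 63, 101, 5 and 138 in that order. With the library number as a replicate block it called 50, 38, 1 and 101. Deviations of each library from the mean of its line were correlated between same-numbered libraries of different lines. Of 62 such pairs 32 correlated above 0.1, over a range of -0.852 to 0.832. In a line of 2 libraries the deviations mirror each other, and number 2 is a last library that stood apart in some lines only. These values therefore do not decide whether library numbers pair the samples. Leaving out each line gave 0 to 1 calls for KO against WT and 0 to 3 in dysplastic lines, the highest without line 801, and 0 in the other 2 comparisons. The cause of these differences was not tested. Leaving out a line moved the log2 fold change of Tagln between -0.9051 and 3.415 for KO against WT and between -0.7310 and 4.081 for dysplastic against non-dysplastic, lowest without line 801. It moved that of Sparc for dysplastic against non-dysplastic between -0.3327 (without 801) and 1.170, with -0.1643 without 1270. That for KO against WT was lowest without line 650 for Myl9 (0.6619, up to 2.119) and for Sparc (0.9350, up to 2.266). The other 104 values of the log2 fold changes of these genes in those comparisons kept direction and side of the threshold, though limma-voom gave 0.4846 for Tagln in KO against WT (2.178 in edgeR). Limits: each combination of genotype and dysplasia has 2 lines, several genes rest on fewer than 100 counts, and limma-voom dropped Pdgfra by its filter.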

Other observations

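Some genes outside the 10 had line patterns of their own, and they are given as values chosen after they were seen. Itgb3, the beta 3 integrin subunit, read 12.3 CPM in KO line 801, 11.2 in 650, 1.07 in 794 and 0.87 in 1270, against 6.69 in 752, 3.02 in 565, 1.31 in 1269 and 1.24 CPM in 300. Tgfb2, a TGF-beta ligand, read 9.72 CPM in 801, 7.24 in 650, 1.75 in 1270 and 0.29 in 794, against 6.36 in 752, 5.46 in 565, 2.43 in 300 and 2.23 CPM in 1269. In both genes 801, 650 and 752 were the 3 highest lines, as for Acta2.

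Line 794 was the highest line in further genes of these lists. Mylk, which encodes the kinase that phosphorylates myosin light chains, read 13.6 CPM there and 0.52 to 0.95 CPM in the other 7 lines. Bmp4, a bone morphogenetic protein ligand, read 52.8 CPM in 794, at most 5.25 CPM in the other KO lines and at most 2.41 CPM in WT lines. Gkn1 and Muc5ac, secreted products of gastric surface mucous cells, read 3760 and 461 CPM in 794 and 463 and 185 CPM in 1270, so 794 was not alone, against at most 160 and 8.54 CPM in WT lines. Col14a1, a fibril-associated collagen, read 21.7 CPM in 794, 8.16 in 801, 2.91 in 1270 and 2.04 in 650, against 0.38 to 6.10 CPM in WT lines. The libraries of 794 disagreed for it, at 26.9, 28.3 and 4.36 CPM. The last of these is a library that stood apart in gene length, and it lay below the libraries of WT line 565, 4.65 to 8.22 CPM. Col14a1 was also lower in the last-numbered library of every other line whose last library stood apart. In 752 it read 1.65 CPM there, against 7.09 and 5.82 CPM. No test separates line 794 from the others, since it is a single line.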
